A study of Mus musculus with 2 samples.

Results

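The 111 nuclei described here are inhibitory nuclei of mouse hippocampus that carried transcripts of both Adarb2 and Reln, out of 13635 nuclei kept from 2 single-nucleus RNA libraries. A nucleus entered the set if it had at least 3 unique molecular identifiers (UMIs, 1 per captured transcript) of the GABA-synthesis genes Gad1 and Gad2 together, at least 5 of Adarb2 and at least 3 of Reln. It could hold at most 2 UMIs of Slc17a7, a transporter of excitatory neurons, and at most 1 of the myelin genes Mobp and Mog together. The nuclei were thus chosen by their UMI counts, so the levels of these genes are given as description. The set was proposed as neurogliaform interneurons, a label that names Adarb2, Reln, Ndnf and Lamp5 as markers, and that label is checked against the counts below. As the counts bear the label out only in part, the nuclei are called Adarb2 Reln nuclei.

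The study set a mouse line heterozygous for a knockout of Capza2 (CAPZA2+/-, Het) against wild type (WT), with 1 hippocampal library per genotype, and asked whether the proportions of cell populations differed. The labels give no age, sex, strain, deletion design or number of animals per library. The protein made from Capza2 is 1 partner of a dimer that caps growing actin filaments. Since each genotype is a single library, nothing here is checked by replicates and no test between genotypes is possible, and every interval below covers counting error only, not the spread between mice, preparations or nuclei.

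Neurogliaform cells are small GABAergic interneurons with dense axons that release GABA diffusely and produce slow inhibition through GABA-A and GABA-B receptors. In the hippocampus they lie mostly in stratum lacunosum-moleculare, and the related Ivy cells lie nearer the pyramidal layer and express neuronal nitric oxide synthase. Neurogliaform cells arise from both the caudal and the medial ganglionic eminence, and Adarb2 is a marker of interneurons from the caudal one. Reelin, the secreted glycoprotein encoded by Reln, is also made by many somatostatin interneurons and by Cajal-Retzius cells.

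Of the 111 Adarb2 Reln nuclei, 46 came from the Het library and 65 from the WT library. They held 637970 UMIs in the Het library, with a median of 12664 per nucleus, and 811806 UMIs in the WT library, with a median of 10766. The whole libraries held 62702888 UMIs in 7801 barcodes (Het) and 58701532 UMIs in 6512 barcodes (WT), of which 7211 and 6424 were kept, and they shared 13 barcode sequences. None of the shared sequences was that of a Het Adarb2 Reln nucleus, and 1 was that of a WT one. At the edge of the rule, 5 Het and 6 WT nuclei held exactly 3 Reln UMIs, and 6 Het and 10 WT nuclei with 2 Reln UMIs met every other criterion. At the Adarb2 edge, 0 Het nuclei and 1 WT nucleus held exactly 5 UMIs, and no nucleus with 4 met the other criteria in either library. Exactly 3 Gad1 and Gad2 UMIs were held by 1 Het and 5 WT nuclei, and 2 Het and 6 WT nuclei stood just outside with 2. On the exclusion side, 5 Het and 5 WT nuclei held 2 Slc17a7 UMIs, with 1 Het and 4 WT nuclei just outside at 3, and 10 Het and 6 WT nuclei held 1 Mobp or Mog UMI, with 1 Het and 3 WT nuclei just outside at 2.

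Adarb2 Reln nuclei were 0.638% of the kept nuclei of the Het library (exact binomial 95% interval 0.467 to 0.850%, 46 of 7211) and 1.01% of those of the WT library (0.782 to 1.29%, 65 of 6424). The Het share was 0.630 times the WT share (0.423 to 0.934). Inhibitory nuclei as a whole were 4.06% of the Het library and 5.54% of the WT library, a ratio of 0.733 (0.626 to 0.858). Among the 293 Het and 356 WT inhibitory nuclei, the Adarb2 Reln nuclei made up 15.7% in Het (11.7 to 20.4%) and 18.3% in WT (14.4 to 22.7%). That ratio was 0.860, and its interval of 0.576 to 1.27 includes equal shares. The lower Het share among all nuclei stood beside a lower share of inhibitory nuclei altogether, and within inhibitory nuclei a difference was not detectable with these numbers. The other inhibitory classes were also a smaller part of the Het library, at ratios of 0.755 (0.563 to 1.01) for Adarb2 nuclei without Reln and 0.757 (0.608 to 0.941) for the rest.

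Adarb2, which encodes an RNA-binding protein of the adenosine deaminase family without known editing activity (GRCm38 chromosome 13, 8202866 to 8768747, plus strand), ranged widely among the nuclei that the rule admitted. It ran from 6 to 925 UMIs per Het nucleus with a median of 46.5, and from 5 to 506 per WT nucleus with a median of 62. Reln (chromosome 5, 21884454 to 22344702, minus strand) ran from 3 to 162 UMIs per Het nucleus with a median of 9.5, and from 3 to 103 per WT nucleus with a median of 9. The libraries overlapped over nearly the whole range of both genes. Summed over the nuclei, Reln stood at 1368 CPM (a gene's UMIs over all UMIs of the summed nuclei, on a common scale) in Het and 1529 CPM in WT.

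The other 2 label markers were carried by some of the nuclei and not by others. Lamp5, a lysosome-associated membrane protein that marks the neurogliaform class (chromosome 2, 136052239 to 136069917, plus strand), had a UMI in 25 of 46 Het nuclei (54.3%, 39.0 to 69.1%) and 31 of 65 WT nuclei (47.7%, 35.1 to 60.5%). Its highest counts were 8 UMIs in a Het nucleus and 14 in a WT nucleus. Ndnf, a secreted factor of cortical neurogliaform cells (chromosome 6, 65671590 to 65712326, plus strand), had a UMI in 16 Het nuclei (34.8%, 21.4 to 50.2%) and 31 WT nuclei (47.7%, 35.1 to 60.5%). Its counts reached 21 UMIs in a Het nucleus and 42 in a WT nucleus. At least 1 of the 2 genes was found in 32 Het nuclei (69.6%) and 45 WT nuclei (69.2%).

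Free RNA in droplets can give a UMI to a nucleus that does not express the gene, so the shares were set beside excitatory and oligodendrocyte nuclei. Excitatory nuclei, with median depths of 17618 (Het) and 17476.5 (WT) UMIs, had a Lamp5 UMI in 17.2% (Het) and 16.1% (WT) and an Ndnf UMI in 2.69% (Het) and 3.15% (WT). Oligodendrocyte nuclei, with medians of 2408.5 (Het) and 2413 (WT) UMIs, had a Lamp5 UMI in 3.50% (Het) and 2.83% (WT) and an Ndnf UMI in 1.17% (Het) and 1.89% (WT). With every nucleus thinned to 2000 UMIs, Lamp5 was found in 21.7% of Het and 15.4% of WT Adarb2 Reln nuclei, against 3.01% of Het and 1.30% of WT excitatory nuclei. Thinned Ndnf shares were 26.1% of Het and 26.2% of WT Adarb2 Reln nuclei, against 0.949% of Het and 0.371% of WT excitatory nuclei. Both markers were thus more frequent in the Adarb2 Reln nuclei than in excitatory nuclei at equal depth, and the thinned Ndnf shares of the libraries were nearly equal. No nucleus of the set fell below 2000 UMIs.

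**Figure D1:**
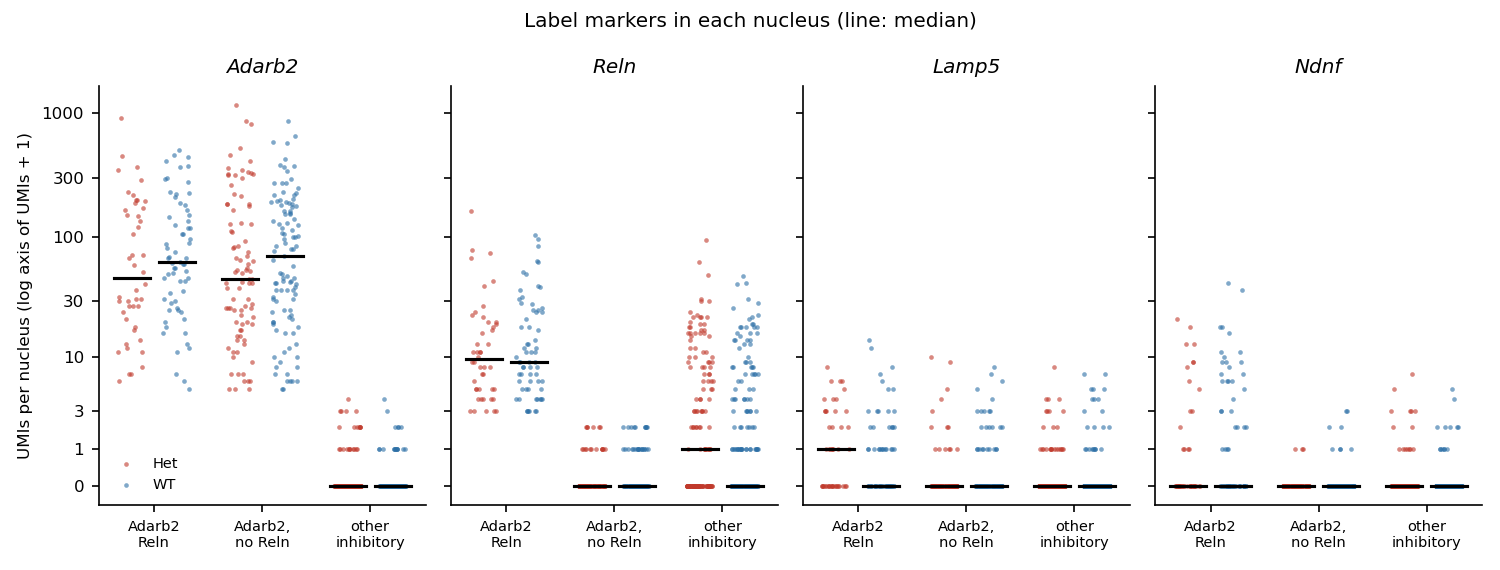
UMIs of the 4 label markers in each nucleus, on a log axis of UMIs + 1, for Adarb2 Reln nuclei, Adarb2 nuclei without Reln and other inhibitory nuclei of the Het (red) and WT (blue) libraries, with the median as a line. The rule fixes the lower edge of Adarb2 and Reln in the first column, while Lamp5 and Ndnf spread from 0 up to 14 and 42 UMIs.

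Cajal-Retzius cells are the other well-known source of Reln in this tissue. Their markers Trp73, Lhx1, Lhx5, Ebf3 and Nhlh2 had no UMI in any of the 46 Het or 65 WT nuclei. The sixth gene of that list, the calcium channel subunit gene Cacna2d2, is not restricted to those cells, and the whole list summed to 43.9 CPM in Het and 25.9 CPM in WT. For Trp73 the absence allows a share with a UMI of up to 7.71% in Het and 5.52% in WT (exact binomial bounds). The rule asked for UMIs of Gad1 or Gad2 and of Adarb2, so this absence describes the chosen nuclei and is no independent check.

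Split by Lamp5 and Ndnf, the nuclei fell into 4 groups with different genes beside those 2. Both genes were present in 9 Het and 17 WT nuclei, Lamp5 alone in 16 Het and 14 WT, Ndnf alone in 7 Het and 14 WT, and neither in 14 Het and 20 WT. A nucleus with few UMIs can miss a gene it expresses. Median depths in the Het library were 12028 UMIs with both genes, 9182 with Lamp5 alone, 11277 with Ndnf alone and 16406.5 with neither. In the WT library they were 12402, 12213, 10375.5 and 9169.5 UMIs in the same order. Nuclei with neither gene were thus the deepest in Het and the shallowest in WT. The part of missed genes in this split was not tested. Shares of the 4 groups overlapped between the libraries within their intervals.

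Reln was highest in the nuclei with both genes, at 3534 CPM in Het and 2859 CPM in WT. It was 796 (Het) and 995 (WT) CPM with Lamp5 alone, 1948 (Het) and 1339 (WT) CPM with Ndnf alone, and 505 (Het) and 699 (WT) CPM with neither. Adarb2 ran the other way for part of the groups, at 4408 (Het) and 4868 (WT) CPM with Lamp5 alone and 10558 (Het) and 13928 (WT) CPM with neither. The order of the groups was the same in both libraries for Reln.

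Kit, a receptor tyrosine kinase for stem cell factor, went with the presence of both markers. It reached 577 CPM in Het and 605 CPM in WT nuclei with both genes, and 24.3 CPM in Het and 60.6 CPM in WT nuclei with neither. Egfr, the epidermal growth factor receptor, stood at 577 CPM in Het and 518 CPM in WT nuclei with both genes, and at 4.04 CPM (1 UMI) in Het and 65.3 CPM in WT nuclei with neither. Of the nuclei with both genes, 7 of 9 in Het and 14 of 17 in WT held at least 3 Kit UMIs.

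Hapln1, a link protein of the extracellular matrix, was highest with Lamp5 alone, at 525 CPM in Het and 447 CPM in WT. Nos1, the neuronal nitric oxide synthase of Ivy cells, was highest with Lamp5 alone in the Het library, at 138 CPM from 25 UMIs. In the WT library it stood at 45.2 CPM from 8 UMIs with Lamp5 alone, and at 60.5 CPM from 14 UMIs with both genes. Lhx6, a transcription factor of the medial ganglionic eminence lineage, was sparse everywhere, with 10 UMIs in the Het and 7 in the WT nuclei with Lamp5 alone. A UMI of Lhx6 or Nos1 together with Lamp5 occurred in 13 Het nuclei (28.3%) and 16 WT nuclei (24.6%).

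Cnr1, the cannabinoid receptor of Cck basket-type interneurons, was highest in nuclei without Lamp5. It stood at 911 (Het) and 751 (WT) CPM with Ndnf alone and 740.0 (Het) and 965 (WT) CPM with neither, against 325 (Het) and 324 (WT) CPM with both genes and 177 (Het) and 136 (WT) CPM with Lamp5 alone. At least 5 Cnr1 UMIs were still held by 4 of 9 Het and 5 of 17 WT nuclei with both genes. Nxph1, a secreted ligand of neurexins, was low where Cnr1 was high: 1049 (Het) and 381 (WT) CPM with Ndnf alone, and 3582 (Het) and 2916 (WT) CPM with both genes. At least 5 Cnr1 UMIs were held by 20 of 46 Het and 26 of 65 WT nuclei, at least 5 Nxph1 UMIs by 32 Het and 36 WT nuclei, and both by 7 Het and 5 WT nuclei. Vip, the neuropeptide of a further caudal type, had 6 UMIs in Het and 34 in WT nuclei with neither gene, and a single WT nucleus held 85.3% of all WT Vip UMIs in the set.

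**Figure D2:**
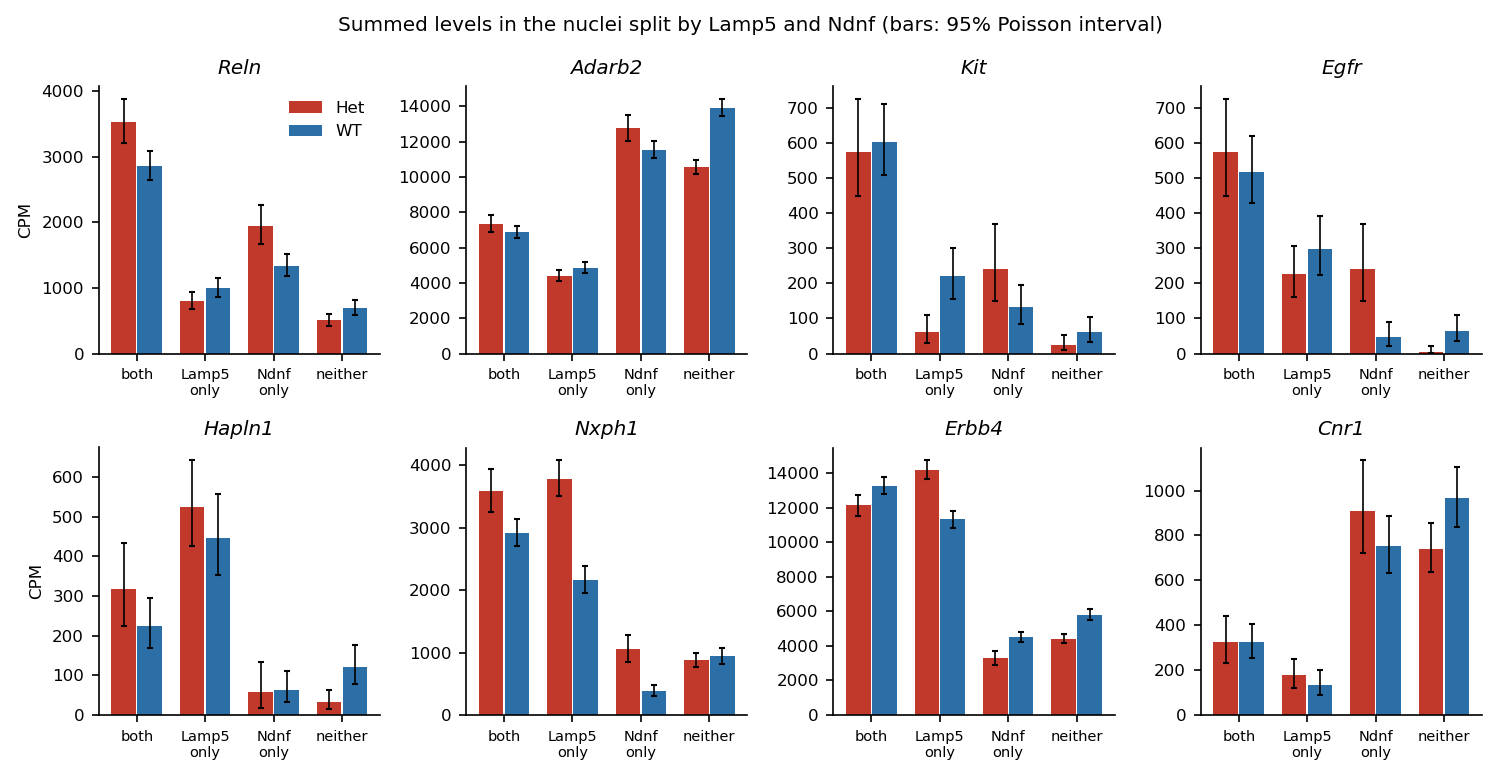
Summed CPM of 8 genes in the Adarb2 Reln nuclei of the Het (red) and WT (blue) libraries, split by whether a nucleus carries Lamp5, Ndnf, both or neither; error bars are 95% Poisson intervals of the UMI sums. Reln, Kit and Egfr were highest with both genes, Hapln1 with Lamp5 alone, and Cnr1 where Lamp5 was missing.

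Clustering all 649 inhibitory nuclei without the rule and label genes placed the Adarb2 Reln nuclei in 8 of 15 clusters, and 109 of the 111 in 6 of them. Cluster 9, led by Kit, Ndnf, Sema3e and Egfr, held 9 Het and 16 WT of the nuclei, and 65.8% of its nuclei belonged to the set. Its remaining nuclei were 3 Het and 2 WT Adarb2 nuclei without Reln, and 7 Het and 1 WT nuclei with at most 4 Adarb2 UMIs. The nuclei outside the set thus came more from the Het library, so the set's counts in cluster 9 are not those of the whole cluster. In cluster 9 the nuclei of the set had 4979.7 (Het) and 3911 (WT) CPM of Reln, and Lamp5 and Ndnf were both present in 18 of these 25. Cluster 0, with Vcan, Hapln1 and Lamp5 among its leading genes, held 14 Het and 11 WT nuclei of the set. The set made up 30.5% of this cluster, which also held 15 Het and 28 WT inhibitory nuclei with at most 4 Adarb2 UMIs. Its nuclei of the set had 819 (Het) and 1490 (WT) CPM of Reln. They had 168 (Het) and 107 (WT) CPM of Nos1 and 80.4 (Het) and 77.9 (WT) CPM of Lhx6. Clusters 0 and 9 together held 50.0% of the Het nuclei (34.9 to 65.1%) and 41.5% of the WT nuclei (29.4 to 54.4%), a ratio of 1.20 (0.659 to 2.18).

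The levels given next are those of the nuclei of the set in each cluster, not of whole clusters. Cluster 2 (8 Het and 11 WT nuclei) has Slc17a8, Cxcl14 and Cnr1 among its leading genes. It had the highest Adarb2, at 19614 (Het) and 23152 (WT) CPM, with 545 (Het) and 461 (WT) CPM of the neuropeptide gene Cck. Cluster 8 (4 Het and 8 WT), with Ntng1 and Ndnf among its leading genes, had Ndnf at 271 (Het) and 878 (WT) CPM beside Cnr1 at 1508 (Het) and 920 (WT) CPM. Cluster 4 (4 Het and 8 WT) was led by Vip, Penk and Tac2. These 3 clusters held 34.8% of the Het and 41.5% of the WT nuclei, a ratio of 0.837 (0.421 to 1.61). In them Lamp5 was at most 19.3 CPM in Het and 18.2 CPM in WT, against 260 (Het) and 277 (WT) CPM in cluster 9 and 292 (Het) and 263 (WT) CPM in cluster 0. Ndnf was high in cluster 9, at 781 (Het) and 824 (WT) CPM, but was 7.31 (Het) and 9.74 (WT) CPM in cluster 0. All 4 label markers were thus found together in cluster 9, cluster 0 had Lamp5 with little Ndnf, and cluster 8 had Ndnf with little Lamp5.

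Cluster 1 stood apart by depth. It held 6 Het and 10 WT nuclei of the set, with medians of 22248.5 (Het) and 19206 (WT) UMIs, and its leading genes included Tshz2 and Foxp2. A doublet caller run at the expected rate marked 2 of these 6 Het and 4 of these 10 WT nuclei, out of 2 Het and 6 WT nuclei marked in the whole set. The summed excitatory marker list stood at 835 (Het) and 1189 (WT) CPM in them, against 624 (Het) and 708 (WT) CPM over the set. In the Het library this did not set cluster 1 apart, as cluster 9 stood at 814 CPM and cluster 4 at 768 CPM, while in the WT library cluster 9 stood at 713 CPM and cluster 4 at 875 CPM. At least 10 UMIs of Sst, the somatostatin gene, were held by 6 Het and 2 WT nuclei of the set, 4 Het and 2 WT of them in cluster 1. Whether these droplets held more than 1 nucleus was not tested beyond these values. Values without the nuclei with high Sst are given below for Sst, Sox6 and some of the genes named between genotypes.

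**Figure D3:**
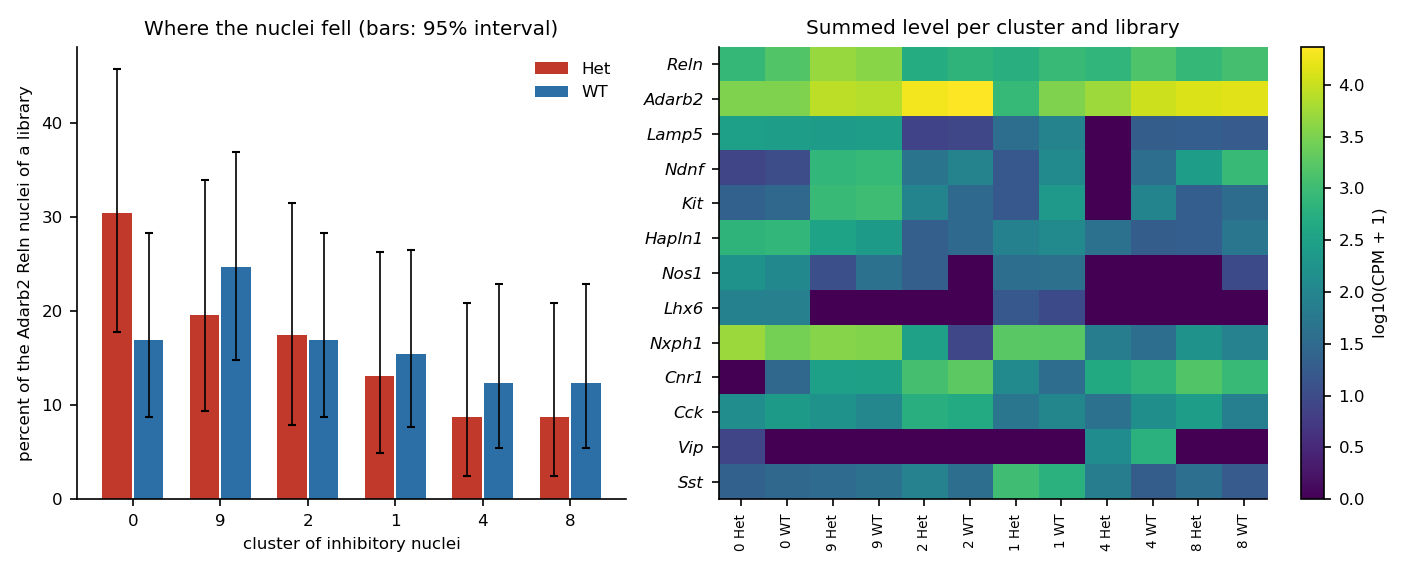
Left, the percent of each library's Adarb2 Reln nuclei (Het red, WT blue) in the 6 clusters that hold at least 5 of them, with exact binomial 95% intervals; right, log10(CPM + 1) of 13 genes in the same nuclei. Clusters 0 and 9 carry Lamp5 and Nxph1, clusters 2 and 8 carry Cnr1, and cluster 1 carries most of the Sst.

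Against the 158 Het and 186 WT other inhibitory nuclei, those with at most 4 Adarb2 UMIs, 3.81% of 4168 genes with at least 100 UMIs lay at least 2-fold apart in the same direction in both libraries (77 higher, 1.85%, and 82 lower, 1.97%). Genes that go with Adarb2 and Reln are not independent of the rule, so these ratios describe the set and test nothing. Kit was 171 CPM in Adarb2 Reln nuclei and 8.92 CPM in other inhibitory nuclei of the Het library, a log2 ratio of 4.26 (3.51 to 5.09). In the WT library it was 267 CPM against 11.9 CPM, a log2 ratio of 4.49 (3.91 to 5.13). Cnr1 was 3.30 (Het) and 3.59 (WT) log2 units higher, Ndnf 3.28 (Het) and 4.90 (WT), and Lamp5 2.06 (Het) and 2.08 (WT).

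Sema3e, a secreted semaphorin, was 2.61 (Het) and 3.46 (WT) log2 units higher, and the membrane semaphorin Sema5a was 2.17 (Het) and 2.21 (WT) higher. Egfr was 2.36 (Het) and 2.80 (WT) higher. Il1rap, a co-receptor for interleukin 1, was 2.33 (Het) and 2.08 (WT) higher. The transcription factor gene Nfib (1.93 Het, 1.95 WT), the calcium channel subunit gene Cacna2d1 (1.90 Het, 2.21 WT), the GABA-B receptor auxiliary subunit gene Kctd16 (1.87 Het, 1.80 WT) and Egfem1 (1.65 Het, 1.95 WT) followed.

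The lowest genes are ones that other interneurons carry. Slit2, a guidance ligand, stood at 14.1 CPM in Adarb2 Reln nuclei and 290 CPM in other inhibitory nuclei of the Het library, and at 17.2 CPM against 317 CPM in the WT library. Crhbp, which encodes the corticotropin-releasing hormone binding protein of many somatostatin cells, was lower at log2 ratios of -3.39 (Het) and -4.27 (WT), from 5 (Het) and 3 (WT) UMIs in the set. Sst was at -1.82 (Het) and -1.95 (WT), and at -5.32 (Het) and -4.45 (WT) without the 6 Het and 2 WT nuclei with high Sst, which held 206 of 221 Het and 129 of 155 WT Sst UMIs of the set. The muscarinic receptor gene Chrm2 was at -2.61 (Het) and -2.29 (WT), and the cadherin gene Cdh18 at -2.24 (Het) and -2.51 (WT).

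**Figure D4:**
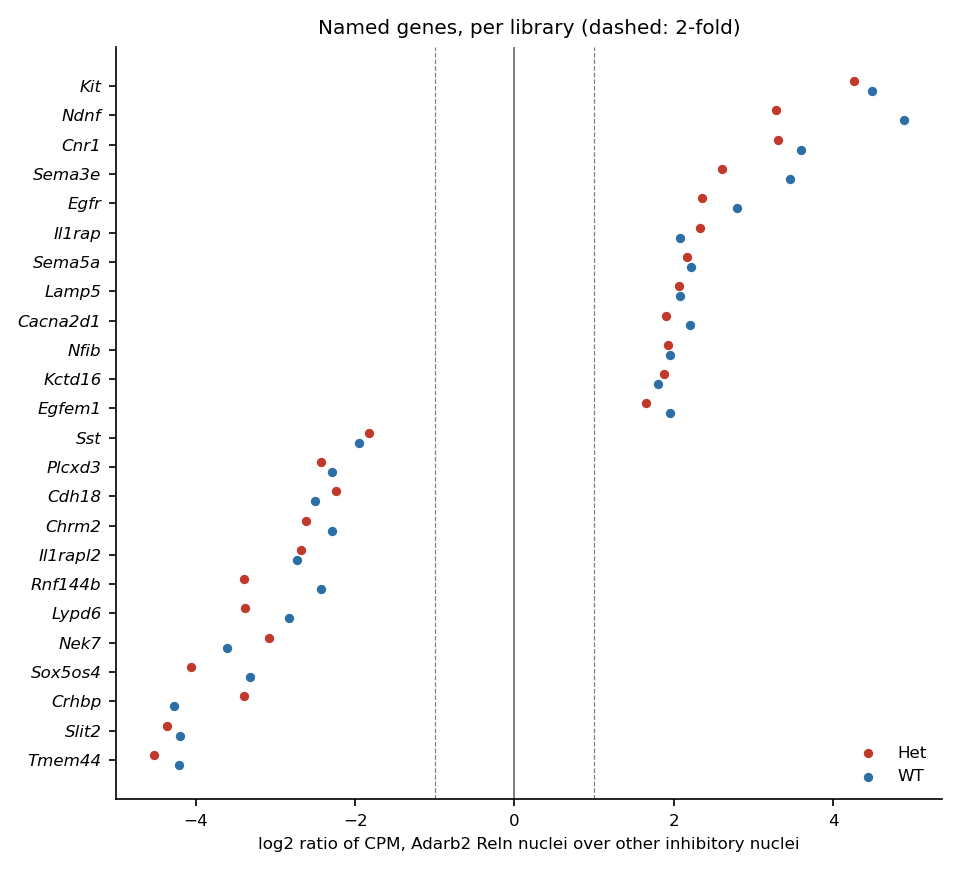
Log2 ratio of CPM in Adarb2 Reln nuclei over other inhibitory nuclei for the 12 highest and 12 lowest genes, in the Het (red) and WT (blue) libraries; dashed lines mark 2-fold. Both libraries gave the same direction for every gene shown, which the choice of genes required.

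Among 12 neurogliaform and Ivy markers, 7 passed the UMI minimum in this comparison, 6 were higher in both libraries and those 6 were at least 2-fold higher, against 1.85% of all genes. Besides Lamp5, Ndnf, Kit and Egfr these were Hapln1 (1.64 Het, 1.65 WT) and Fgf13 (1.11 Het, 1.06 WT), which encodes a regulator of sodium channels. Lamp5 and Ndnf are label genes chosen with these data known, so the count is no independent support. Of 11 medial ganglionic eminence genes 7 passed, all 7 lower in both libraries and 3 at least 2-fold lower, against 1.97% of all genes. The other inhibitory nuclei were chosen for at most 4 Adarb2 UMIs. Sox6, a transcription factor of that lineage, stood at 102 CPM in the set and 395 CPM in other inhibitory nuclei of the Het library, and at 27.1 CPM against 428 CPM in the WT library. The nuclei with high Sst held 58 of the 65 Het and 11 of the 22 WT Sox6 UMIs of the set, and without them Sox6 stood at 14.3 CPM in both libraries. Among reelin pathway genes, Dab1, the adaptor that carries the reelin signal inside the cell, was 1.14 (Het) and 1.57 (WT) log2 units higher, and the reelin receptor gene Vldlr 0.98 (Het) and 1.10 (WT) higher.

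Against the 89 Het and 105 WT Adarb2 nuclei with at most 2 Reln UMIs, 1.72% of 2906 genes lay at least 2-fold apart in both libraries (34 higher, 1.17%, and 16 lower, 0.551%). Ndnf was 179 CPM in Adarb2 Reln nuclei and 2.80 CPM (3 UMIs) in those without Reln in the Het library, and 328 CPM against 11.0 CPM (14 UMIs) in the WT library. Kit was 1.93 (Het) and 2.50 (WT) log2 units higher, Nxph1 1.72 (Het) and 1.21 (WT), and the sarcoglycan gene Sgcz 1.90 (Het) and 1.60 (WT). Adra1a, an alpha-1 adrenergic receptor, was 1.47 (Het) and 1.45 (WT) higher, and the potassium channel gene Kcnh7 1.30 (Het) and 1.09 (WT) higher.

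Vip was the lowest gene of this comparison, at 11.0 CPM in Adarb2 Reln nuclei against 386 CPM in nuclei without Reln of the Het library, and 41.9 CPM against 282 CPM in the WT library. A single nucleus held 85.3% of the WT Vip UMIs of the set. Cck was lower at log2 ratios of -0.97 (Het) and -1.17 (WT). The metabotropic glutamate receptor gene Grm7 had 708 CPM in Adarb2 Reln nuclei against 1413 CPM in nuclei without Reln of the Het library, and 615 CPM against 1188 CPM in the WT library. The semaphorin receptor genes Nrp1 (-1.18 Het, -1.42 WT) and Plxna4 (-1.04 Het, -1.25 WT) were lower too. Of 12 neurogliaform and Ivy markers 7 passed the minimum, 6 were higher in both libraries and 5 at least 2-fold, against 1.17% of all genes.

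Capza2 (ENSMUSG00000015733, chromosome 6, 17636234 to 17666972, plus strand) had 37 UMIs in Het and 53 in WT Adarb2 Reln nuclei. It stood at 58.0 CPM (40.8 to 79.9) in Het and 65.3 CPM (48.9 to 85.4) in WT, a log2 ratio of -0.17 with an interval of -0.82 to 0.46. The interval does not reach a 2-fold difference in either direction and includes equal levels. With only nuclei free of Slc17a7, Mobp and Mog UMIs the log2 ratio was -0.83, and with all nuclei thinned to 2000 UMIs it was 0.50, so the direction is not settled at these counts. In the deeper excitatory nuclei Capza2 stood at 55.9 CPM in Het and 69.8 CPM in WT, and in oligodendrocyte nuclei at 83.5 CPM in Het and 122 CPM in WT, so it was lower in the library labelled Het in each of these classes. The 3' reads need not lie in the deleted part of the gene. The other alpha subunit gene Capza1 had 22 UMIs in Het and 37 in WT nuclei (log2 ratio -0.40, -1.23 to 0.40), and the beta subunit gene Capzb had 20 in Het and 37 in WT (-0.54, -1.40 to 0.28).

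Between genotypes most genes of the Adarb2 Reln nuclei lay close together. Of 2474 genes with at least 100 UMIs, 24 (0.97%) were at least 2-fold apart, 14 of them higher in Het (0.566%) and 10 lower (0.404%), and the median log2 ratio was -0.02. The genes named next were ranked by the interval bound nearest to 0, and since nuclei of several clusters were summed, each ratio also carries the makeup of the set.

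Tmtc2, which encodes a transmembrane protein with tetratricopeptide repeats, had 334 CPM in Het and 117 CPM in WT nuclei, a log2 ratio of 1.51 (1.16 to 1.88). Its UMIs came from 27 Het and 38 WT nuclei. Ptprt, a receptor tyrosine phosphatase, had 1063 CPM in Het and 471 CPM in WT, a log2 ratio of 1.18 (0.99 to 1.36). Without the nuclei with at least 10 Sst UMIs the ratios were 1.12 for Tmtc2 and 1.16 for Ptprt, and in clusters 0 and 9 alone they were 0.96 and 0.97.

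The ratios of some other high genes were smaller without those nuclei. Kctd8, a GABA-B receptor auxiliary subunit, had 230 CPM in Het and 111 CPM in WT (1.06), and 0.30 without the 6 Het and 2 WT nuclei with high Sst. Dpp10, a potassium channel auxiliary subunit, had 1806 CPM in Het and 1101 CPM in WT (0.71), and 0.24 without them. Tafa2, a secreted chemokine-like protein, had a log2 ratio of 0.89 over the set and -0.16 in clusters 0 and 9, and the muscarinic receptor gene Chrm3 had 0.70 over the set and -0.15 there. Col25a1, a membrane collagen, was 0.68 higher over the set and 1.10 higher in clusters 0 and 9. Utrn (0.94, and 0.47 without the nuclei with high Sst) and Mkx (1.02, 0.47 without them and -0.14 in clusters 0 and 9) were higher as well.

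Among the lowest genes, Btbd11, a BTB domain protein of interneuron synapses, had 75.2 CPM in Het and 171 CPM in WT nuclei, a log2 ratio of -1.19 (-1.69 to -0.70). Aopep, an aminopeptidase, had 97.2 CPM in Het and 204 CPM in WT (-1.07, -1.52 to -0.64). In clusters 0 and 9 the ratios were -1.52 for Btbd11 and -1.36 for Aopep, further from 0 than over the set. Ndnf had 179 CPM in Het and 328 CPM in WT (-0.87, -1.20 to -0.55), but 0.14 at equal depth. Nell1, a secreted glycoprotein, was -0.76, the cadherin gene Cdh11 -0.65 and the phosphodiesterase gene Pde11a -0.80. Tenm3, a teneurin adhesion protein, was -0.74 over the set and 0.29 in clusters 0 and 9. The neuregulin gene Nrg1 was -0.55, Ppp1r2 -0.92 and the ephrin receptor gene Epha3 -0.56.

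**Figure D5:**
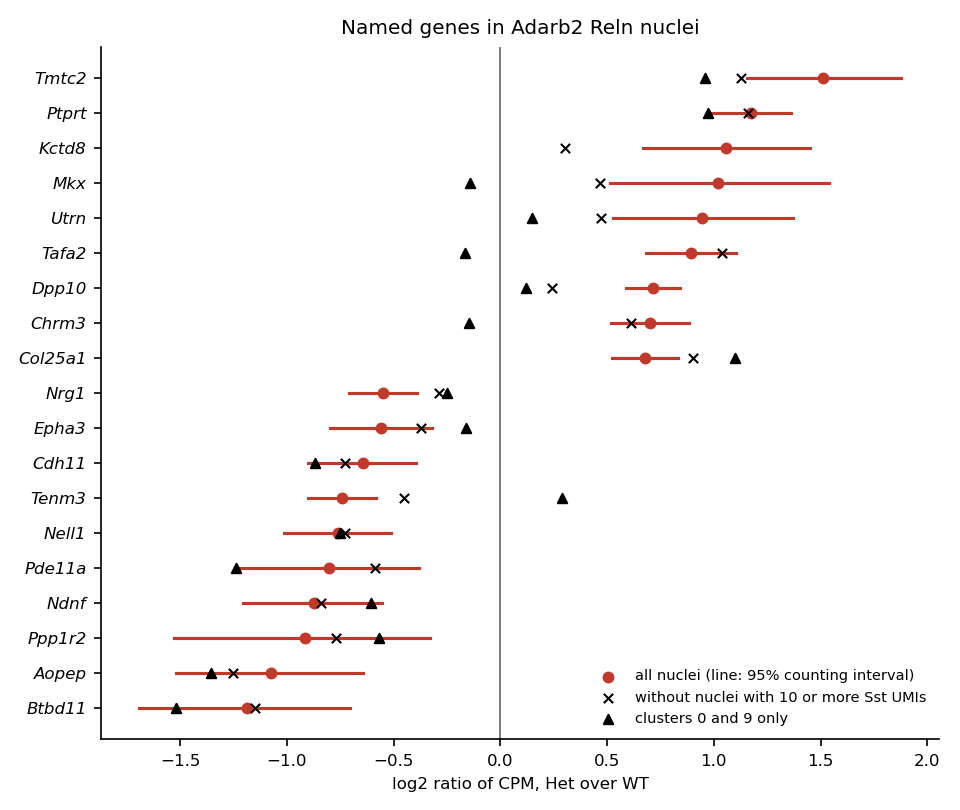
Log2 ratio of CPM, Het over WT, for the genes named in the text, in all Adarb2 Reln nuclei (red, with 95% counting intervals), without nuclei holding at least 10 Sst UMIs (crosses), and in clusters 0 and 9 only (triangles; Kctd8 had no finite ratio there). Tafa2, Chrm3, Mkx and Tenm3 change side in clusters 0 and 9, while Tmtc2, Ptprt, Btbd11 and Aopep keep theirs.

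Gene lists were read against all 2474 genes, of which 46.2% were higher in Het. Of 12 neurogliaform and Ivy markers 8 passed the minimum, 2 higher and 6 lower in Het, with a median of -0.12 and none at least 2-fold apart. Npy, the neuropeptide of many neurogliaform and Ivy cells, had 114 CPM in Het and 186 CPM in WT, with a single nucleus holding 27.8% of the WT UMIs, and Kit had 171 CPM in Het and 267 CPM in WT. Lamp5 had 116 CPM in Het and 119 CPM in WT. All 4 medial ganglionic eminence genes that passed were higher in Het, with a median of 0.44, among them Nxph1 at 2245 CPM in Het and 1638 CPM in WT and Sst at 346 CPM in Het and 191 CPM in WT. Without the nuclei with high Sst, Sst stood at 30.5 CPM in Het and 33.8 CPM in WT. One nucleus held 42.5% of the Het and another 67.1% of the WT Sst UMIs, and the list median was 0.13 in clusters 0 and 9 and -0.01 with only nuclei free of Slc17a7, Mobp and Mog UMIs.

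All 5 measured genes of the neuregulin and Erbb4 list were lower in Het, with a median of -0.20. Erbb4, the neuregulin receptor of interneurons, differed by -0.05 and Nrg3 by -0.12, both small. Of 14 ionotropic glutamate receptor genes 12 passed, 10 higher and 2 lower in Het, with a median of 0.15 that was -0.02 at 2000 UMIs per nucleus and -0.01 with only nuclei free of Slc17a7, Mobp and Mog UMIs. Gria4 had 1837 CPM in Het and 1549.6 CPM in WT, and Grik1 had 1959 CPM in Het and 1769 CPM in WT. Of 14 GABA receptor genes 11 passed, 9 higher and 2 lower, with a median of 0.16. Gad2 had 593 CPM in Het and 506 CPM in WT, and Gad1 353 CPM in Het and 315 CPM in WT, both genes of the rule. None of these lists had a gene at least 2-fold apart.

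Potassium channel genes were mixed, 13 of 18 higher and 5 lower in Het with a median of 0.07, and Kcnd2, an A-type channel, had 1807 CPM in Het and 2291 CPM in WT. Synaptic adhesion genes were 9 higher and 18 lower, with a median of -0.06, among them the neurexin family gene Cntnap2 at -0.22. The actin capping list had 4 higher and 4 lower genes of 8, with a median of -0.03. Reelin pathway genes were 2 higher and 3 lower, with a median of -0.11, and Dab1 had 2362 CPM in Het and 2879 CPM in WT. The 3 lower ones include Reln, a gene of the rule. Nitric oxide genes were 3 higher and 1 lower (median 0.14, but -0.38 in nuclei with a Lamp5 or Ndnf UMI). GABA synthesis and uptake genes were 4 higher and 1 lower (0.16), with the rule genes Gad1 and Gad2 among the higher ones. Cck, Cnr1 and Vip list genes were 1 higher and 2 lower (-0.08), and both measured caudal lineage genes were lower (-0.38). A single gene each passed in the electrical coupling list (Tjp1, -0.30) and the activity-regulated list (-0.08).

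Of 13 mitochondrially encoded genes, all 6 that passed were lower in Het, with a median of -1.04, and 3 were at least 2-fold lower, against 0.404% of all genes. Their sum was 511 CPM (457 to 570) in Het and 1031 CPM (962 to 1103) in WT Adarb2 Reln nuclei. The median mitochondrial share per nucleus was 0.0405% (Het) and 0.0966% (WT) in the set. Over all kept nuclei, which include the set, it was 0.0618% in Het and 0.0876% in WT. Excitatory nuclei had 0.0277% (Het) and 0.0480% (WT), and oligodendrocyte nuclei 0.106% (Het) and 0.121% (WT). It was thus lower in Het in these classes too, by differing amounts. In nuclei such transcripts are carried over from the cytoplasm, and whether preparation differed was not tested. Summed markers of other cells in the set were 326 (Het) and 506 (WT) CPM for astrocytes, 133 (Het) and 73.9 (WT) CPM for oligodendrocytes, 73.7 (Het) and 105 (WT) CPM for microglia, 161 (Het) and 182 (WT) CPM for oligodendrocyte precursors, of which Vcan, a leading gene of cluster 0, made up 155 (Het) and 172 (WT) CPM, and 113 (Het) and 85.0 (WT) CPM for choroid plexus and blood. Mag was at 0 in both libraries, as were the precursor markers Cspg4 and Olig2, and a single nucleus held up to 58 (Het) and 167 (WT) astrocyte UMIs. The part of these cells in the ratios was not tested.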

How the data were processed

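The authors deposited raw UMI counts per gene and barcode, which were made with Cell Ranger 7.1.0, per the file headers, on mm10, per the submitters' processing notes, and per the labels' protocols from nuclei of frozen hippocampus with the 10x Genomics 3' v3 chemistry. Barcodes with at least 500 genes and at most 5% mitochondrial UMIs were kept, and doublets were kept, with Scrublet at the expected rate as an alternative. Excitatory nuclei had at least 5 Slc17a7 UMIs, and oligodendrocyte nuclei at least 5 of Mobp and Mog, both with at most 1 of Gad1 and Gad2. Coordinates are from GENCODE M21 (GRCm38), where 32158 of 32285 gene identifiers were found. UMIs were summed per library over the chosen nuclei and scaled to CPM. Shares carry exact binomial (Clopper-Pearson), sums exact Poisson and ratios exact conditional binomial intervals, all at 95%, and genes needed at least 100 UMIs. Inhibitory nuclei were clustered on 2000 variable genes, 20 principal components and 10 neighbours at Leiden resolution 1. Named genes are the 10 highest and 10 lowest between genotypes and the 12 highest and 12 lowest between classes by the interval bound nearest to 0, leaving out genes with over 20% of a library's UMIs in 1 nucleus (between classes, in the class where the gene is higher), mitochondrial, Xist, Y-linked and rule genes, plus the most abundant genes of each list. Not every gene so picked is reported here. The members and the 23 gene lists were chosen with earlier results of these data known. The ratio intervals were run on simulated Poisson sums without spread between nuclei, preparations or mice. That is the counting model they assume, so the simulation says nothing about other sources of error. Versions were numpy 2.4.6 and scipy 1.17.1 under Python 3.11.15, with clustering by leidenalg 0.10.2 in scanpy 1.11.5.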

Additional observations from a re-analysis of the deposited data

How the results depend on the processing

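No paired analysis was possible because each genotype has 1 library. The share of genes at least 2-fold apart between genotypes was 1.63% with a 50 UMI minimum, 16.4% with none, 10.8% at 2000 UMIs per nucleus, 2.02% with at least 10 Adarb2 and 6 Reln UMIs, 1.61% with no UMI of Slc17a7, Mobp or Mog, and 2.13% without cluster 1. Against other inhibitory nuclei it was 5.84% with no minimum, 7.07% with no UMI of those 3 genes and 9.11% in clusters 0 and 9. Capza2 was 0.50 at 2000 UMIs and -0.83 with no UMI of those 3 genes. Lamp5 was found in 21.7% of Het and 15.4% of WT nuclei at 2000 UMIs, and Ndnf in 26.2% of WT nuclei then and 61.7% under the stricter rule. Signs turned for Ndnf at 2000 UMIs (0.14), for Tafa2 (-0.16), Chrm3 (-0.15), Mkx (-0.14) and Tenm3 (0.29) in clusters 0 and 9, and for Pcdh15 against Adarb2 nuclei without Reln in the Het library (-0.24) with no UMI of those 3 genes; the cause was not tested. The share among kept nuclei was lower in Het under every setting run, at log2 ratios of -1.01 to -0.57. Of the other single-gene values between genotypes, 65 moved beyond their interval and 241 did not, and of those between classes 346 moved and 868 did not. The settings without nuclei of high Sst or of cluster 1, with Lamp5 or Ndnf only, and with clusters 0 and 9 only were chosen after seeing the data. The main limits are 1 library per genotype, 46 and 65 nuclei, and few UMIs for Lamp5 and Capza2.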
